A study of Mus musculus with 10 samples.

Results

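The insulin-like growth axis was followed here through 10 genes: the imprinted noncoding RNA gene H19, the growth factor gene Igf2, the receptor genes Igf2r, Igf1r and Insr, the receptor adaptor gene Grb10, the transcription factor gene Plagl1 and the RNA-binding protein genes Igf2bp1, Igf2bp2 and Igf2bp3. They were picked by symbol from a table of read counts for 21868 genes, and all 10 were found in it. The choice was made with the difference between genotypes in view (H19 and Plagl1 stand far apart between them). The genotype differences of these 10 genes are therefore given as a description, with no p-value printed for any of them. Counts of the 10 past each test are given below, and nothing is read from them. All 10 passed the filter on low counts, which kept 16785 genes.

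The cells, described as equivalent to hemangioblasts, are mouse embryonic stem cells differentiated in suspension as embryoid bodies without leukaemia inhibitory factor and sorted for Flk1, the VEGF receptor encoded by Kdr, which marks precursors of blood and endothelium. RNA-seq of total RNA compared Ldb1+/+ cells (WT) with Ldb1-/- cells (KO), 4 libraries each. Ldb1 is an adaptor that joins transcription factors into complexes. The sources used here do not say on which day the cells for RNA were sorted or whether a genotype is more than 1 clone, so loss of Ldb1 cannot be told apart from any other difference between the cell lines.

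In each genotype, libraries 1 and 2 were close to repeat counts of 1 library, and so were libraries 3 and 4: they differed by little beyond counting error, with a mean chi-square per gene of 1.065 to 1.101, where 1 is counting error alone. Each such pair was therefore counted as 1 sample, A (libraries 1 and 2) and B (libraries 3 and 4), which leaves n = 2 per genotype and 22674679 to 26775787 reads per sample. No label says whether A and B are separate cultures, so any p-value below measures the spread between these samples, which may be technical. Levels are counts per 1000000 reads (CPM) after TMM scaling. Ldb1 itself was read at 105 and 113 CPM in WT A and B against 96.1 and 80.1 CPM in KO A and B (edgeR adjusted p = 0.41). How the allele was deleted is not stated in the labels, so this checks no label. The Y-linked genes Eif2s3y and Uty, named after their values were seen, were lower in KO, by a fitted -5.58 (SE 0.38) and -2.71 (SE 0.25) on the log2 scale, each at an edgeR adjusted p of 0.0476. The log2 fold changes of Kdm5d and Ddx3y, also on the Y chromosome, were -3.52 (SE 0.36) and -1.46 (SE 0.17) and did not pass.

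The sorted cells were compared with marker genes of the types they could hold, summed as CPM of all reads. The 7 Flk1+ mesoderm markers summed to 579 to 931 in WT and 126 to 329 in KO. Kdr, the gene of the sort marker itself, was at 444 and 611 in WT A and B against 241 and 75.2 in KO A and B. Its fitted log2 fold change was -1.73 (SE 0.59, edgeR adjusted p = 0.289). The 8 blood markers summed to 173 to 206 in WT and 15.9 to 16.5 in KO, and 4 of the 8 passed edgeR's test as lower, while Hbb-bh1 was at 0 reads in KO. The 8 smooth muscle and mesenchyme markers summed to 692 to 928 in WT and 1660 to 3060 in KO, and 1 of the 8 passed as higher. The 10 visceral endoderm markers summed to 51.8 to 103 in WT and 15.7 to 42.2 in KO. Of these, Apoa1 and Ttr lay under 1 CPM on average, while others were read. Cubn was at 57.9 and 5.64 in WT A and B and 5.91 and 4.44 in KO A and B, so it made up 57.9 of the WT A sum of 103. Apob and Apoa1 were highest in KO A. Apob was at 5.13 and 2.94 in the WT pair and 10.6 and 1.72 in the KO pair. Sox17 was at 23 and 21.1 in the WT pair and 12.5 and 3.81 in the KO pair. The 7 endothelial markers summed to 460 to 848 in WT and 211 to 544 in KO. Among them Pecam1 had 320 and 132 in the WT pair against 71.4 and 38.1 in the KO pair. Cdh5 (153 and 85.2 against 185 and 60.1) and Tek (52.5 and 39.7 against 56.8 and 21.9) were highest in KO A. The 6 cardiac mesoderm markers summed to 41.8 to 113 in WT and 36 to 57.6 in KO. Of 6 trophoblast markers in the table, Cdx2, Elf5 and Tpbpa lay under 1 CPM. The sums were 16.3 to 23.4 in WT and 47.7 to 77.3 in KO, most of it Krt7. Within WT, A and B also differed, with 7 pluripotency markers at 1340 and 428 and 6 primitive streak markers at 16.7 and 181. In KO the corresponding sums were 680 and 733 for pluripotency and 51.6 and 17.2 for primitive streak. The part of these shifts in the results below was not tested, and in bulk RNA fewer cells of a type and less RNA per cell cannot be told apart.

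IGF2 is a fetal growth factor that signals through the tyrosine kinase receptors encoded by Igf1r and Insr, whereas the receptor encoded by Igf2r takes it up and sends it to lysosomes. H19 and Igf2 are neighbours on chromosome 7 that share enhancers and an imprinting control region. The unmethylated control region on the maternal chromosome binds CTCF and leaves the enhancers to H19, and methylation on the paternal chromosome leaves them to Igf2. In most mouse tissues, Igf2r and Grb10 are expressed from the maternal allele and Plagl1 from the paternal allele. None of these counts separates the alleles.

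H19 (ENSMUSG00000000031), the noncoding RNA of the pair, was about an order of magnitude lower in KO. WT libraries 1 to 4 held 13663, 13938, 30211 and 31258 H19 reads (1180, 1185, 2307 and 2349 CPM), and KO libraries 1 to 4 held 1251, 1365, 2128 and 2283 reads (108.9, 117.3, 166 and 175.3 CPM). The genotypes did not overlap, as was so for 28.7% of all 16785 tested genes, and the lowest WT library stood above the highest KO library by 2.75 on the log2 scale. The fitted log2 fold change was -3.62 (SE 0.44), or 12.3-fold lower in KO. Within each genotype sample B was the higher one, by 0.98 on the log2 scale in WT and 0.61 in KO.

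Igf2 (ENSMUSG00000048583), the growth factor gene of the pair, was higher in KO. Its WT libraries held 293.2, 291.3, 679.8 and 692.5 CPM and its KO libraries 1285, 1303, 1422 and 1416 CPM. The genotypes did not overlap, and the log2 fold change was 1.48 (SE 0.43), 2.79-fold higher in KO. WT sample A was the low sample. Against WT A alone the log2 fold change was 2.23, and against WT B alone it was 0.99. WT B was above WT A by 1.23 on the log2 scale, in the direction that H19 took between the same samples, while KO B was above KO A by 0.15.

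The balance of the neighbours was read within each library, where neither depth nor scaling enters. Per base of transcript, WT libraries 1 to 4 had 0.119, 0.117, 0.141 and 0.141 Igf2 reads for each H19 read. KO libraries 1 to 4 had 5.64, 5.31, 4.09 and 3.86. H19 was thus the more abundant RNA of the pair in all 4 WT libraries and Igf2 in all 4 KO libraries. In WT, where the level of both RNAs differed between A and B, the ratio stayed between 0.117 and 0.141.

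**Figure D1:**
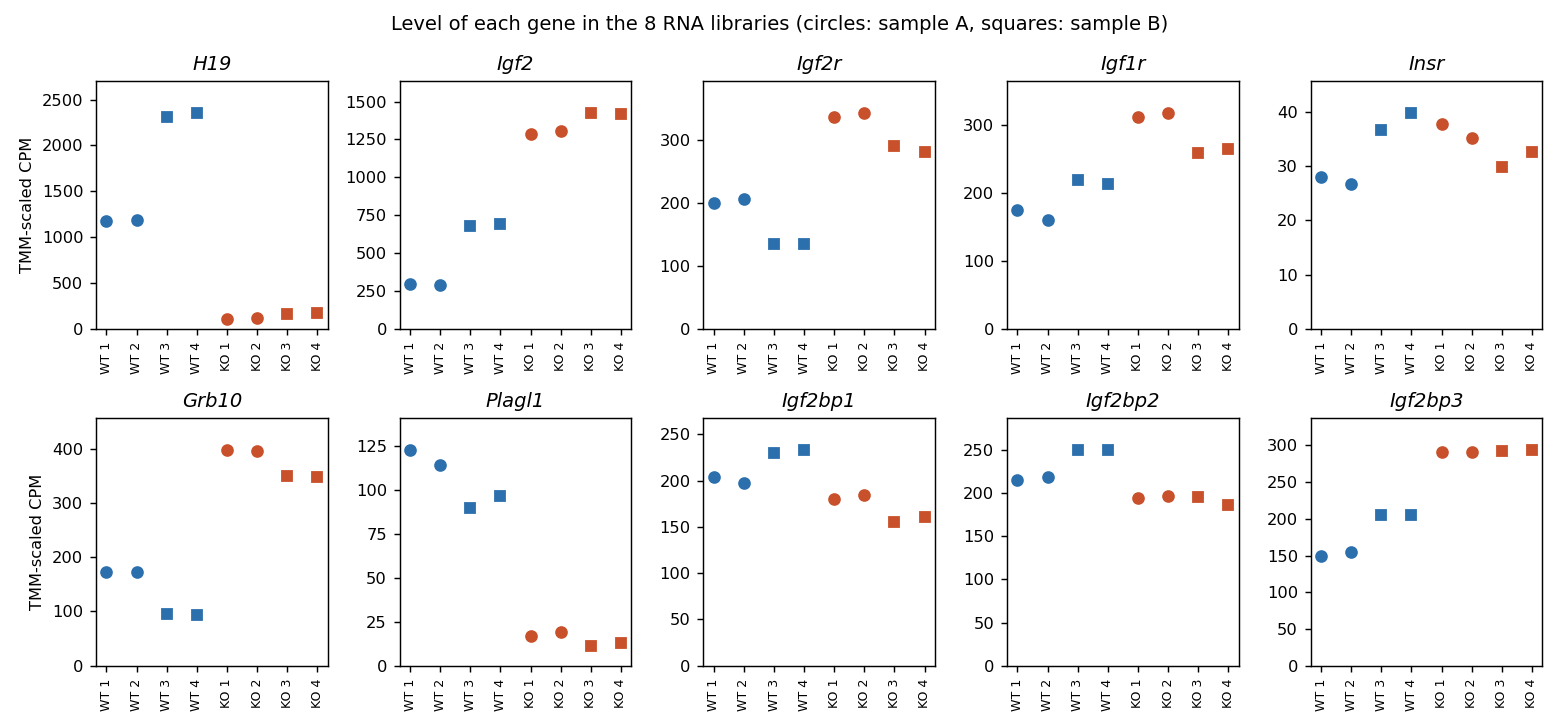
Level of each of the 10 genes in TMM-scaled CPM (vertical axis, linear from 0) in the 8 RNA libraries (horizontal axis; blue WT, orange KO; circles sample A, squares sample B). Libraries of 1 sample nearly coincide, H19 runs from 1180 to 2349 CPM in WT and from 108.9 to 175.3 CPM in KO, and Insr is the gene whose genotypes overlap.

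The H19 transcript is also the precursor of a microRNA, miR-675, which is known to restrain placental growth in the mouse, with Igf1r among its reported targets. Its hairpin lies inside H19 and has a row of its own in the count table (Mir675), so its RNA-seq reads cannot be told apart from reads of the H19 transcript and say nothing of the mature microRNA. It is shown because it is the part of H19 whose product acts on the receptor side of the axis. The sequences are from RefSeq, build GRCm38.p6, minus strand, 5′ to 3′. In the mature arms capitals mark the seed (bases 2 to 8), and in the hairpin at chr7:142577064-142577147 they mark both arms.
mmu-miR-675-5p: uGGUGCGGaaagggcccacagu
mmu-miR-675-3p: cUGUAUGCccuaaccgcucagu
Mir675 hairpin: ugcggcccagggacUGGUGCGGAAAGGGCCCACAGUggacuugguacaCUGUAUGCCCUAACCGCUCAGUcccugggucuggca
The seeds of the arms differ, and 0 of the other names among 1679 mature mouse microRNAs in the RefSeq table share either of them. The Mir675 row held 254, 286, 556 and 567 reads in WT libraries 1 to 4 and 31, 29, 52 and 52 in KO libraries 1 to 4. The per-base ratio to H19 was 0.487 to 0.551 in WT and 0.571 to 0.666 in KO. The hairpin of Igf2, Mir483, had 1 read in all, in KO library 4.

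Among the receptor genes, Igf2r and Igf1r were higher in KO, and Insr overlapped between genotypes. Igf2r (ENSMUSG00000023830) on chromosome 17, the clearance receptor for IGF2, was read at 202.6 and 134.9 CPM in WT A and B against 339.9 and 289.2 CPM in KO A and B. No KO library overlapped a WT library, and the log2 fold change was 0.90 (SE 0.23). Igf1r, the main signalling receptor, went from 167 and 215.6 CPM in the WT samples to 314.1 and 264.7 CPM in the KO samples, also without overlap, with a log2 fold change of 0.60 (SE 0.18). Insr, the insulin receptor gene, was the least abundant receptor, at 27.14 and 38 CPM in the WT pair against 36.37 and 31.49 CPM in the KO pair. Its genotypes overlapped, and its log2 fold change of 0.06 (SE 0.21) was smaller than its error.

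Airn is the noncoding RNA that overlaps Igf2r in antisense and silences the paternal Igf2r allele in most mouse tissues. It had 6.27 and 7.1 CPM in the WT pair against 7.26 and 5.78 CPM in the KO pair. Its log2 fold change was -0.04 (SE 0.26). Whether counting used strand is unknown, so reads of the overlap may be shared. Airn had few reads, 651 over the 8 libraries. Igf2 reads per base for each Igf2r read were 2.75 and 2.66 in WT libraries 1 and 2, 9.46 and 9.6 in WT libraries 3 and 4, and 7.14 to 9.45 in KO. The libraries of WT A were thus the low ones, and those of WT B lay just above the highest KO library, so WT libraries stood on both sides of KO. Igf1r reads per base for each Insr read were 1.97 to 2.3 in WT and 2.99 to 3.31 in KO.

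Grb10 (ENSMUSG00000020176), whose protein binds the active insulin and IGF1 receptors and dampens their signal, was higher in KO. WT libraries 1 to 4 held 172.9, 171.8, 94.53 and 92.8 CPM and KO libraries 397.5, 394.9, 349.3 and 347.5 CPM. The groups stood apart, with a log2 fold change of 1.5 (SE 0.31), 2.82-fold higher in KO. Grb10 lies on chromosome 11, whose 901 genes with a log2 of the mean CPM above 3 had a median log2 fold change of -0.47. Relative to that median the Grb10 difference was 1.97. WT B was the low sample, under WT A by 0.88 on the log2 scale.

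Plagl1 (ENSMUSG00000019817) on chromosome 10, which encodes a zinc finger factor known in the mouse to act on Igf2, H19 and other imprinted genes, was lower in KO. The WT libraries held 1421, 1344, 1174 and 1283 reads (122.8, 114.3, 89.64 and 96.4 CPM) and the KO libraries 192, 221, 144 and 170 reads (16.71, 19, 11.23 and 13.05 CPM). The genotypes did not overlap, and the lowest WT library was above the highest KO library by 2.24 on the log2 scale. The log2 fold change was -2.81 (SE 0.24), 7.01-fold lower in KO. Sample B was the lower one in both genotypes, by 0.35 in WT and 0.54 in KO.

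The 3 Igf2bp genes encode related RNA-binding proteins (IMP1 to IMP3) that bind Igf2 mRNA among many others. Igf2bp1 was read at 199.8 and 230.7 CPM in WT A and B against 181.8 and 159.8 CPM in KO A and B, a log2 fold change of -0.33 (SE 0.14). Igf2bp2 was read at 216.1 and 249.1 CPM in the WT pair against 195.7 and 192.5 CPM in the KO pair, a log2 fold change of -0.26 (SE 0.13). The libraries of these genes did not overlap between genotypes, but the gaps were narrow, 0.0988 and 0.129 on the log2 scale. Igf2bp1 lies on chromosome 11, and relative to that chromosome's median its difference was 0.14, on the other side of 0.

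Igf2bp3 was the member of this family that was higher in KO. Its WT libraries held 149, 154.1, 205.3 and 205.3 CPM and its KO libraries 291.3, 290.9, 292.5 and 293.6 CPM, with no overlap and a log2 fold change of 0.72 (SE 0.18). Its gene model overlaps that of Malsu1, a mitochondrial ribosome assembly factor gene, whose log2 fold change was 0.66 (SE 0.16), and reads of the overlap may be shared. Per base, Igf2bp3 made up 20.4% to 23.6% of the reads of the family in the WT libraries and 35.5% to 38.1% in the KO libraries. The share of Igf2bp1 was 41.4% to 43.6% in WT and 31.4% to 35.2% in KO. The summed level of the family was close in both genotypes, 566.9 and 684.4 CPM in the WT pair against 668.3 and 647.8 CPM in the KO pair.

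**Figure D2:**
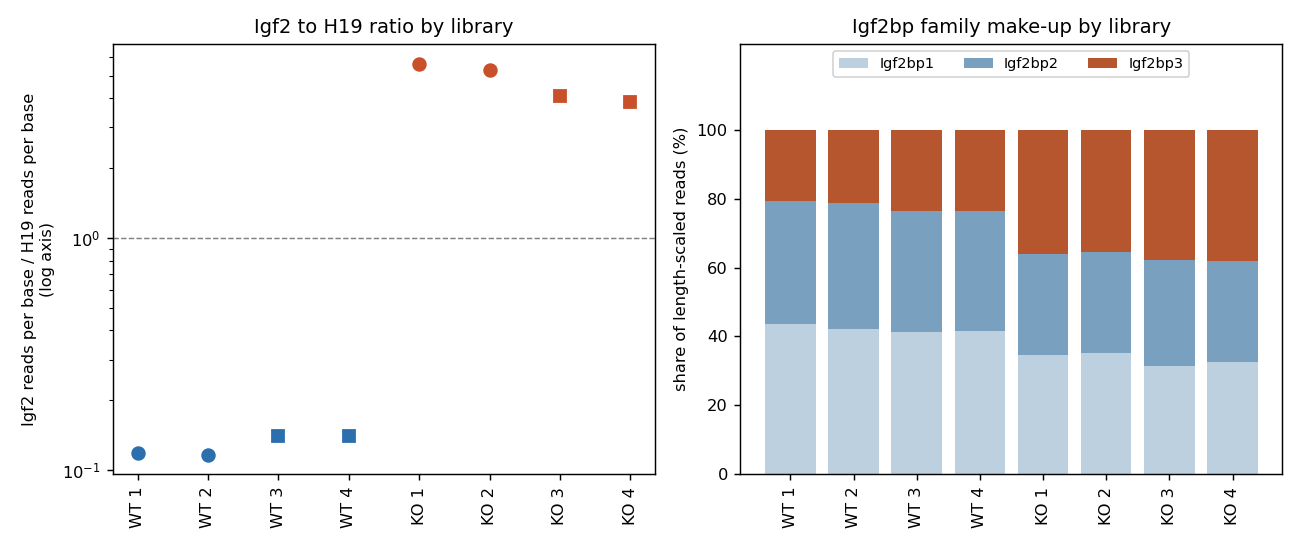
Left, Igf2 reads per base divided by H19 reads per base (log axis, dashed line at 1) in each library (blue WT, orange KO; circles sample A, squares sample B), which lie at 0.117 to 0.141 in WT and 3.86 to 5.64 in KO. Right, share in percent of the length-scaled reads of the Igf2bp family taken by each of its genes, where Igf2bp3 goes from 20.4% to 23.6% in WT to 35.5% to 38.1% in KO.

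The 10 differences side by side were 4 below 0 with no overlap of libraries (H19, Plagl1, Igf2bp1 and Igf2bp2), 5 above 0 with no overlap (Igf2, Igf2r, Igf1r, Grb10 and Igf2bp3) and Insr with overlap. Over all 16785 genes, 14.3% lay lower in KO and 14.4% higher without overlap of the 4 and 4 libraries, 28.7% in all. By edgeR's quasi-likelihood test at an adjusted p of 0.05, 1 of the 10 was called (Plagl1), beside 0.185% of all genes, and 0 were called without KO sample A or B. By DESeq2 6 of the 10 were called (H19, Plagl1, Igf2, Grb10, Igf2r and Igf2bp3), beside 6.96% of all genes, and by limma-voom 0 of the 10, beside 0.0179%. At an unadjusted edgeR p under 0.05, 7 of the 10 stood, the same 6 and Igf1r, beside 15.5% of all genes. Since the choice of genes used this contrast, nothing is read from these counts.

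**Figure D3:**
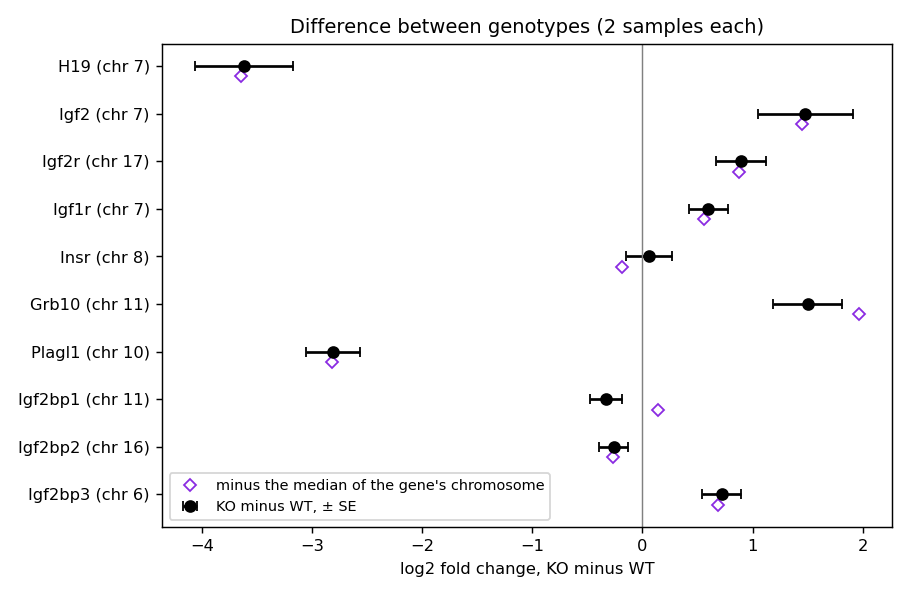
Fitted log2 fold change, KO minus WT, of each gene with its SE (black, 2 samples per genotype) and the same value after subtracting the median of the gene's chromosome (open diamonds). H19 at -3.62 and Plagl1 at -2.81 lie far below 0. Removing the chromosome median moves Grb10 from 1.5 to 1.97, takes Insr from 0.06 to -0.19 and takes Igf2bp1 from -0.33 to 0.14.

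Levels of different genes were compared per 1000 bases of the transcript length in the authors' table. In WT, H19 led at 775 ± 358 CPM per 1000 bases (SD, n = 2), followed by Igf2 at 103 ± 58.8, Igf2bp1 at 77.4 ± 7.85 and Igf2bp2 at 65.2 ± 6.54. Then came Igf2bp3 at 41 ± 8.74, Grb10 at 27.9 ± 11.6, Plagl1 at 20 ± 3.4, Igf2r at 19 ± 5.39, Igf1r at 16 ± 2.87 and Insr at 7.43 ± 1.75. The sample range of Igf2 overlapped those of Igf2bp1 and Igf2bp2. From Igf2bp3 down to Igf1r each pair of neighbours overlapped, so the order there lies within the spread.

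In KO, Igf2 led at 288 ± 20.7 CPM per 1000 bases, followed by Grb10 at 78.6 ± 6.61. Igf2bp3 (67.6 ± 0.773), H19 (63.2 ± 18.5) and Igf2bp1 (61.4 ± 5.61) followed. H19, at 50.1 and 76.3 in its samples, overlapped the ranges of Grb10 and of all 3 Igf2bp genes. Below them stood Igf2bp2 at 54.4 ± 0.64, Igf2r at 35.4 ± 4.04, Igf1r at 24.2 ± 2.92, Insr at 7.73 ± 0.787 and, last, Plagl1 at 2.86 ± 0.751. H19, first in WT, thus lay in KO within the stretch from Grb10 to Igf2bp2, and Plagl1, which overlapped Grb10 and Igf2r in WT, lay below all the others in KO.

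**Figure D4:**
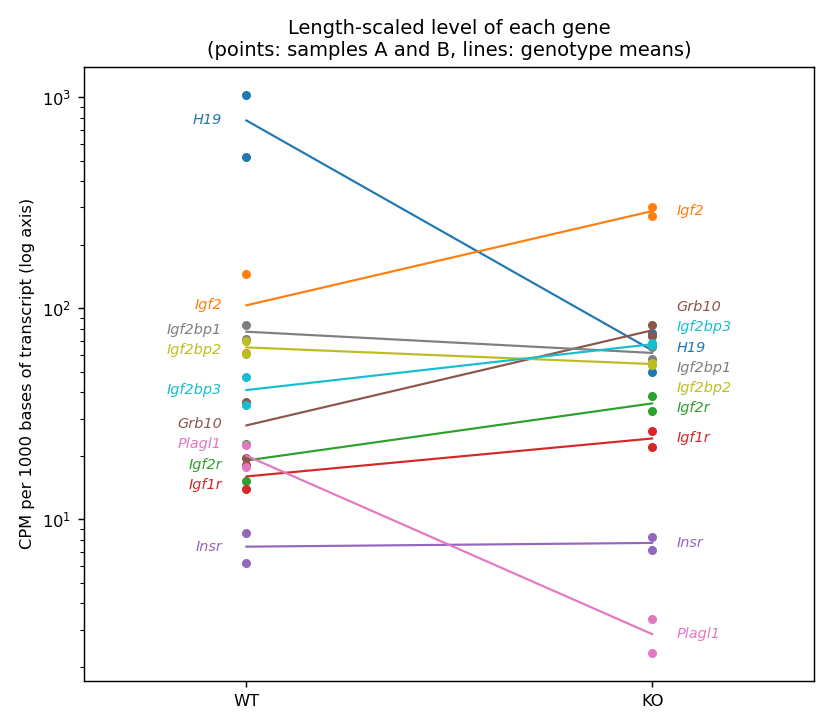
CPM per 1000 bases of transcript (log axis) of the 10 genes in WT (left) and KO (right), with samples A and B as points and lines joining the genotype means; name labels are spread apart where means lie close. H19 leads in WT and Igf2 in KO, at 775 and 103 in WT and 63.2 and 288 in KO, and Plagl1 drops to the bottom at 2.86.

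The gene starts of the imprinted members outside the H19 and Igf2 pair are shown because these genes differ in opposite directions (Plagl1 lower, Igf2r and Grb10 higher in KO) and because their imprints are known as methylation of CpG dinucleotides. Each stretch is the 250 bases before a RefSeq start in build GRCm38.p6, read 5′ to 3′ on the gene's strand, with CG dinucleotides in capitals. Whether these stretches cover the regions that carry the imprints was not tested. Plagl1 is at chr10:13090582-13090831 (plus strand), Igf2r at chr17:12769707-12769956 (minus strand), and the starts of Grb10 at chr11:12037421-12037670 and chr11:12027972-12028221 (minus strand).
Plagl1: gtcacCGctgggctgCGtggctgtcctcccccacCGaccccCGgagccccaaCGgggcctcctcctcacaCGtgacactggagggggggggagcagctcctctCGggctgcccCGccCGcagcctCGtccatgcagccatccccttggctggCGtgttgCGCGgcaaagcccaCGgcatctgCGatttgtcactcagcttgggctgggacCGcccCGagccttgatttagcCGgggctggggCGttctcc
Igf2r: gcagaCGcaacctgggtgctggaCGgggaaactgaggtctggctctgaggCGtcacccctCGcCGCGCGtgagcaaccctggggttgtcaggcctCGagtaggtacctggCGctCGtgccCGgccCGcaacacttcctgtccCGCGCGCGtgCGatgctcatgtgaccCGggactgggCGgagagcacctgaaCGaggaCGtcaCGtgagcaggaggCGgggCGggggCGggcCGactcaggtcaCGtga
Grb10, upstream start: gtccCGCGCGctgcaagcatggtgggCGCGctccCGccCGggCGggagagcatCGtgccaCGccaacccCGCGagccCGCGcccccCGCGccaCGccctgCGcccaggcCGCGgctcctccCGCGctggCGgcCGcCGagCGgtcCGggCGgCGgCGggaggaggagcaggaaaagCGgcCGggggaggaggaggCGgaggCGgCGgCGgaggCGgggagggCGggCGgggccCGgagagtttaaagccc
Grb10, downstream start: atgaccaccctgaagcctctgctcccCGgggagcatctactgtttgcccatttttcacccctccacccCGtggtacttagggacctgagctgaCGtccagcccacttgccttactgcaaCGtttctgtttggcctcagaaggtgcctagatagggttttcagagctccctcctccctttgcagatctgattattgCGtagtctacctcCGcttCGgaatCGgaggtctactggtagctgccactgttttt
The windows of Plagl1 and Igf2r hold 19 and 27 CG dinucleotides, and those of Grb10 hold 40 at the upstream start and 8 at the downstream start. The median over 32851 such windows of mouse genes is 6, with quartiles of 2 and 16. At the 4 starts of Igf2 the counts are 1, 10, 22 and 6. The single windows of Igf1r, Igf2bp2 and Igf2bp3 hold 42, 40 and 21. The table matched 7 of the 10 genes, with 11 windows, and H19, Insr and Igf2bp1 had no entry. The letters GATAA, part of the site of GATA factors, occur in 0 of these 11 windows on either strand, against 22.6% of all windows. The E-box letters CANNTG, which read the same on both strands, occur in 5 of the 11 windows, those of Igf2 (first start), Igf2r, Plagl1, Grb10 (downstream start) and Igf2bp3, against 66.2% of all windows. The background was not matched for base composition. The share of G and C ran from 47.6% to 81.2% in the 11 windows, beside a median of 52.4% over all windows, and 4 of the 11 belong to Igf2. Nothing is therefore read from these shares. These matches describe letters, not binding, and the counts do not show which start was used.

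The genes next to the imprinted members, taken as the nearest tested genes of at least 1 CPM in RefSeq order, gave no call by edgeR. Mrpl23, a mitochondrial ribosome gene beside H19, had 48.1 and 50.6 CPM in the WT pair against 36.6 and 41.7 CPM in the KO pair (edgeR adjusted p = 0.349), and Ascl2, beyond Igf2, had 1.66 and 1.51 against 1.43 and 1.33 CPM (adjusted p = 0.85). Sf3b5 and Ltv1, on either side of Plagl1, had log2 fold changes of 0.01 (SE 0.14) and 0.04 (SE 0.18). Slc22a3, next to Igf2r and itself imprinted in mouse placenta, had -0.25 (SE 0.42). Beside Grb10, the dopa decarboxylase gene Ddc had 9.48 and 7.28 CPM in the WT pair against 2.85 and 2.89 CPM in the KO pair (a log2 fold change -1.54, SE 0.27, edgeR adjusted p = 0.11), opposite in sign to Grb10, and Cobl had 0.05 (SE 0.73). Ddc and Cobl lie on chromosome 11, whose median of -0.47 was not subtracted here. Of the 7 neighbouring genes, 0 passed by edgeR, and the difference of each from its imprinted neighbour was not tested. Which of the 7 are themselves imprinted was not assessed here, so they are not taken as controls without an imprint.

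The genes most like a member over the 4 samples were ranked by the root mean square difference of log2 CPM centred on each gene's mean, among 11367 genes of at least 5 CPM, as a description. Nearest to H19 were its own hairpin Mir675 (0.169), the X-linked RNA export gene Nxf3 (0.366) and the reelin gene Reln (0.482). Nearest to Plagl1 were Grap2, an adaptor gene of blood cells (0.188), Fermt3, which encodes kindlin-3 of blood cells (0.211), and Pof1b (0.218). Nearest to Igf2 were Pkia, a protein kinase A inhibitor gene (0.159), Igdcc4 (0.167) and the phosphatase gene Dusp9 (0.204). Igf2r had closer matches, Gng3, Cxcl16 and Trim67 at 0.0432 to 0.0548. With 4 samples many genes share such a pattern.

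The remaining genes of the axis were taken from 6 lists with 98 entries, of which 97 were in the table and 94 were tested by edgeR over all genes. Of the 94, 1 rose and 1 fell, or 2.13% beside 0.185% of all genes, and both are imprinted. At an unadjusted p under 0.05, 11 were higher and 7 lower (19.1% beside 15.5% of all genes), and DESeq2 called 7 higher and 3 lower (10.6% beside 6.96%). The lists were drawn up with earlier results of these data known, those of the imprinted genes Mest and Cdkn1c among them. Nothing is therefore read from the counts of list genes, here or list by list below.

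Mest and Cdkn1c were those called, in the list of Plagl1 relatives and the imprinted gene network described around Plagl1 in the mouse. Mest, a paternally expressed gene of mesoderm, fell from 652 and 774 CPM in WT to 38.7 and 33.4 CPM in the KO pair (a log2 fold change of -4.31, SE 0.17, edgeR adjusted p = 0.00539). Cdkn1c, a maternally expressed cell cycle inhibitor gene, rose from 10.2 and 9.43 CPM to 57.2 and 92.1 CPM (2.93, SE 0.27, adjusted p = 0.0493), a call that was lost under several settings, among them without KO library 2, under limma-voom or a filter at 1 CPM, and with chromosome medians removed. With either KO sample left out, 0 genes were called by edgeR (1704 and 1106 of all genes at an unadjusted p under 0.05), Mest included. The other 11 of 13 did not pass. The zinc finger gene Peg3 differed widely between the WT samples, at 209 and 1290 CPM in WT A and B against 477 and 349 CPM in KO A and B. The log2 fold change of Gnas was 0.36 (SE 0.23). Decorin, Dcn, at 0.189 to 1.21 CPM, is named after its values were seen, since its log2 fold change of 2.48 (SE 0.44) did not pass. The median over the list was -0.05, beside -0.01 over all genes, and it was 0.47 without WT sample B.

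Of 13 tested ligand and binding protein genes 0 passed by edgeR. At an unadjusted edgeR p below 0.05, 1 higher and 1 lower stood, beside 15.5% of all genes. The calls of DESeq2 were 1 lower, beside 6.96% of all genes. The lower gene lies on chromosome 11, whose median was -0.47. The DESeq2 call was Igfbp4, an IGF-sequestering binding protein gene on chromosome 11, at 272 and 385 CPM in the WT pair against 193 and 120 CPM in the KO pair (log2 fold change -1.07, SE 0.30, edgeR adjusted p = 0.195). Igfbp5 had 10.8 and 40.1 CPM in the WT pair against 58.9 and 68.8 CPM in the KO pair (1.33, SE 0.65), and Igfbp2, the other abundant binding protein gene, had 241 and 119 against 132 and 191 CPM (-0.15, SE 0.40). Igfbp7, outside the naming rule, was the higher gene at an unadjusted edgeR p below 0.05. Its levels were 2.56 and 1.13 CPM in the WT pair against 3.59 and 7.18 CPM in the KO pair (1.55, SE 0.55). The median over the list was 0.05.

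Of 15 tested receptor-proximal genes 0 passed by edgeR. At an unadjusted edgeR p below 0.05, 2 higher and 1 lower stood, beside 15.5% of all genes. The lower gene, Grb2 (-0.38, SE 0.12), is outside the naming rule. It lies on chromosome 11, whose median was -0.47. The calls of DESeq2 were 2 higher, beside 6.96% of all genes. The DESeq2 calls were Irs2 and Shc1. Irs2, a docking protein of both receptors, had 54.5 and 95.2 CPM in the WT pair against 124 and 161 CPM in the KO pair (0.93, SE 0.31, edgeR adjusted p = 0.256). Shc1, which falls outside the naming rule, had 150 and 138 against 211 and 198 CPM (0.50, SE 0.13, edgeR adjusted p = 0.161). The docking protein gene Gab1, called by neither, had 246 and 127 against 269 and 369 CPM (0.77, SE 0.37). Irs2 and Gab1 lie on chromosome 8, whose median was 0.25. Nedd4, a ubiquitin ligase gene whose protein binds Grb10, was the most abundant at 1490 and 1950 CPM in the WT pair against 2200 and 2060 CPM in the KO pair (0.31, SE 0.17). The median over the list was 0.13.

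Of 26 PI3K, Akt, mTOR and Foxo genes 0 passed by edgeR. At an unadjusted edgeR p below 0.05, 4 higher and 2 lower stood, beside 15.5% of all genes. The calls of DESeq2 were 2 higher, beside 6.96% of all genes. The 2 lower genes, outside the naming rule, were Rptor (-0.40, SE 0.14) and Rps6kb1 (-0.49, SE 0.14). They lie on chromosome 11, whose median was -0.47. Among the 4 higher, Pik3r2 (0.45, SE 0.13), also outside the rule, lies on chromosome 8, whose median was 0.25. Inppl1, which encodes the lipid phosphatase SHIP2 that opposes insulin signalling, had 129 and 141 CPM in the WT pair against 223 and 231 CPM in the KO pair (0.75, SE 0.13, edgeR adjusted p = 0.105). The regulatory subunit gene Pik3r3 had 14.3 and 14.6 against 22.3 and 23.7 CPM (0.67, SE 0.16, adjusted p = 0.145). Eif4ebp1, a translation repressor gene on chromosome 8, had 0.32 (SE 0.17). The median over the list was 0.05.

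Of 14 genes of IMP partners and the Lin28 axis 0 passed by edgeR. At an unadjusted edgeR p below 0.05, 1 higher and 0 lower stood, beside 15.5% of all genes. The calls of DESeq2 were 1 higher, beside 6.96% of all genes. In each case the gene was Lin28b, an inhibitor of let-7 microRNA maturation. It had 53 and 78.2 CPM in the WT pair against 124 and 112 CPM in the KO pair (0.84, SE 0.21, edgeR adjusted p = 0.163). The abundant IMP partners Hnrnpu and Ybx1 had 0.01 (SE 0.12) and -0.04 (SE 0.12). Myc, whose mRNA IMP1 binds, had 11.7 and 64 CPM in WT A and B against 14.3 and 20.3 CPM in the KO pair. The median over the list was 0.04.

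Of 13 imprint control factor genes 0 passed by edgeR. At an unadjusted edgeR p below 0.05, 1 higher and 1 lower stood, beside 15.5% of all genes. The calls of DESeq2 were 1 higher and 1 lower, beside 6.96% of all genes. Tet2, which oxidises methylated cytosine, had 61.3 and 41.9 CPM in the WT pair against 28.7 and 29.2 CPM in the KO pair (-0.84, SE 0.21, edgeR adjusted p = 0.163). Dnmt3a, a de novo methyltransferase gene that falls outside the naming rule and is given because it was the other DESeq2 call, had 134 and 155 CPM in the WT samples and 234 and 206 CPM in the KO samples (0.61, SE 0.14, edgeR adjusted p = 0.144). Dppa3, which protects imprints in the early embryo, had 44 and 6.87 CPM in WT A and B against 11.8 and 14.8 CPM in the KO pair. Dnmt1, the maintenance methyltransferase gene, and Trim28, a corepressor at imprinted regions, had -0.06 (SE 0.15) and -0.01 (SE 0.15). The median over the list was -0.01.

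**Figure D5:**
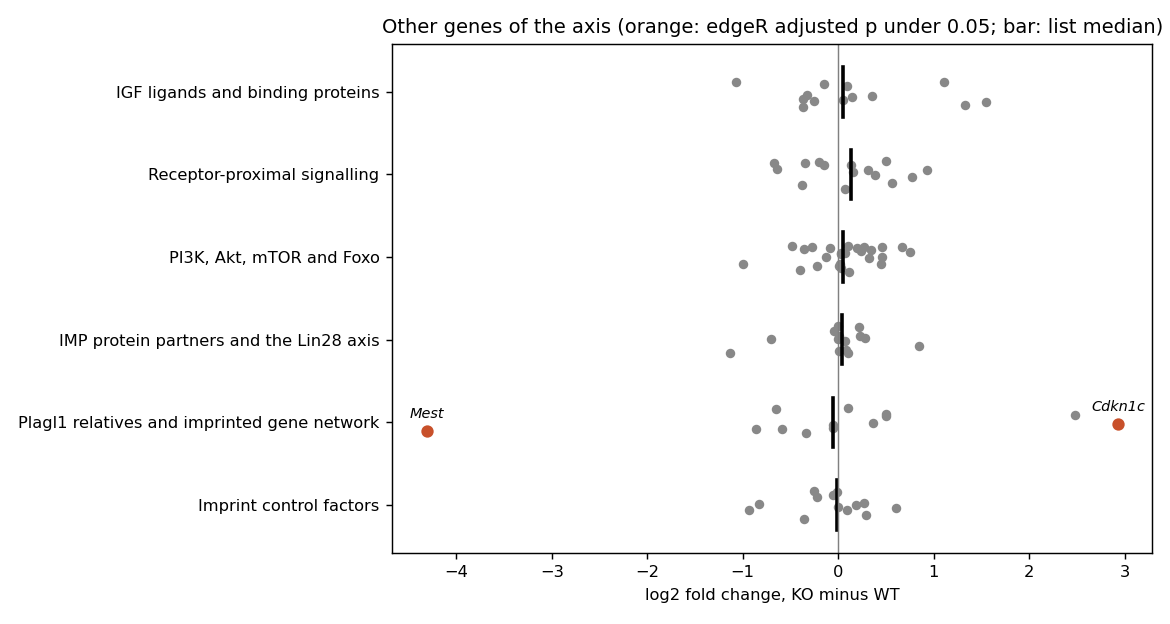
Log2 fold change, KO minus WT (horizontal axis), of each tested gene (points, spread vertically for sight) of the 6 lists, with list medians as bars and the genes past an edgeR adjusted p of 0.05 in orange. Mest at -4.31 and Cdkn1c at 2.93 stand apart, and the list medians lie between -0.05 and 0.13.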

How the data were processed

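RNA was measured in 8 libraries, 4 per genotype. The authors deposited raw read counts per Ensembl gene with a transcript length, per the file headers; build mm9 and the tool DESeq are named, per the submitters' processing notes. The choice of aligner, counter, annotation release and strand setting was not given in the sources used here. Of 21868 genes, 20362 were paired with a symbol, and 0 rows named no gene. The ChIP peak list was not used here, since its positions are on mm9 and the annotation in hand is GRCm38.p6.

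Libraries of a genotype that agreed within sampling noise (mean chi-square per gene under 1.5, taking genes that had 20 or more reads) were summed. After filterByExpr and TMM scaling, the quasi-likelihood test of edgeR 4.0.16 (robust, R 4.3.3) was run on these counts, with Benjamini-Hochberg adjustment over all genes at a threshold of 0.05. The script was tested on simulated data. With 2 samples a side the smallest exact two-sided permutation p is 0.333, so none is given for single values. Log2 CPM used a prior count of 2, and chromosome medians genes whose mean CPM had a log2 above 3. Alternatives were other scalings and filters, DESeq2 1.42.0, limma-voom (limma 3.58.1), a replicate block, libraries or samples left out, 8 separate libraries and chromosome medians removed. Depth was 11258493 to 13483294 counts per library.

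Members and lists were chosen with earlier results of these data known. Named genes were the members, Ldb1, list genes past the test, the 2 largest differences at 5 CPM or more and the 2 most abundant that did not pass in each list, the 3 nearest patterns of 4 members, and the neighbours of the imprinted members. Airn, Mir675, Mir483 and Malsu1 were added because they overlap members, and the marker genes and Kdr come from the marker lists.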

Additional observations from a re-analysis of the deposited data

How the results depend on the processing

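The log2 fold changes of H19, Igf2, Igf2r, Igf1r, Grb10, Plagl1, Igf2bp2 and Igf2bp3 kept their direction under all alternatives run. Insr was below 0 without WT sample A, without KO sample A and with chromosome medians removed, and Igf2bp1 was above 0 with chromosome medians removed. Removing chromosome medians gave 1.967 for Grb10, -0.1902 for Insr and 0.1374 for Igf2bp1. With 1 library or 1 whole sample left out, the log2 fold changes ran from -4.032 to -3.041 for H19, 0.9864 to 2.231 for Igf2, 0.6398 to 1.214 for Igf2r, -3.098 to -2.562 for Plagl1, 1.127 to 1.994 for Grb10, 0.4177 to 0.7983 for Igf1r, -0.1709 to 0.3266 for Insr and 0.5117 to 0.9627 for Igf2bp3; the extremes were mostly those without WT sample A or B, and for Plagl1 those without a KO sample.

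Calls over all 16785 tested genes were 31 by edgeR (0.185%), 1168 by DESeq2 (6.96%) and 3 by limma-voom (0.0179%). Calls were 151 with no filter on low counts (21868 tested) and 5 with a filter at 1 CPM (15310 tested). They were 3860 of 15589 tested genes when the 8 libraries were fitted separately, which counts repeat libraries as replicates. With 1 library or sample left out they ran from 0 to 1674: 0 without KO sample A or B (1704 and 1106 at an unadjusted p under 0.05), 1537 without WT sample A and 1674 without WT sample B, where the lone sample is assumed to vary like the other genotype. Of the 10 genes, 1 (Plagl1) was called by edgeR, 6 by DESeq2, 9 with 8 libraries and 0 under upper quartile scaling, library size scaling, limma-voom, the filter at 1 CPM and chromosome medians removed; leaving out 1 library or sample gave 0 to 6. Of the 94 list genes, 2 were called by edgeR, 10 by DESeq2 and 25 with 8 libraries, 1 (Mest) by limma-voom, with the filter at 1 CPM and with chromosome medians removed, and 0 to 15 with 1 library or sample left out. The replicate block left 5 calls over all genes, 2 of the 10 (H19 and Plagl1) and 1 list gene (Mest); the deviations of same-lettered samples correlated at -0.114 over 12244 genes, and nothing in the labels ties them. The crossed replicate block, chosen after seeing the data, left 4, 0 and 1 (Mest), so Cdkn1c was called under neither block. Scalings moved the median over all genes to between -0.0406 and -0.00924. Where no cause is named, the cause was not tested. All levels rest on 2 samples a genotype, and those of genes with few reads, such as Airn, also carry counting error. The share of each in the precision was not tested.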
